A study of Drosophila melanogaster with 4 samples.

Results

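Mitochondrial ribosomal protein genes of Drosophila melanogaster were examined in RNA bound by the poly(A)-binding protein (PABP) and in total RNA. The members are the rows of the count table whose name is mRpL or mRpS followed by a number, which gave 73 of 17806 named genes: 47 of the large (mRpL) and 26 of the small (mRpS) subunit. The mitochondrial ribosome makes the few proteins that the mitochondrial genome encodes, all of them subunits of the respiratory chain and ATP synthase. Its own proteins are encoded in the nucleus, translated in the cytosol and imported into the organelle. Many descend from bacterial ribosomal proteins and keep their numbers, and others were added in the mitochondrial lineage. In flies, loss of such proteins slows growth and development through weak respiration.

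Samples came from adult flies, 200 per sample with 100 of each sex, ground to powder, exposed to ultraviolet light and lysed. RNA that FLAG beads pulled from these whole-animal lysates makes up the 2 PABP IP libraries, which carry the label of intestinal progenitor cells, the cells that divide to renew the gut epithelium. Before precipitation, RNA of such lysates went into the 2 input libraries, which are labelled as all cells. The labels name no strain, age, driver of the tagged protein or control precipitation, and do not say whether samples of a group came from separate fly collections, so the p-values rest on a spread between samples that may be technical. The named genes held 8987420 (PABP IP 1), 10761349 (PABP IP 2), 2464629 (input 1) and 3346231 (input 2) counts.

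The gene of the precipitated protein, pAbp, stood at 13418 and 13130 CPM in the IP and at 1387 and 1234 in the input. All 6 progenitor markers were higher in the IP, with a summed level of 8545 and 9280 CPM against 103 in each input. CPM here are counts scaled to library size and by TMM, a factor per library that centres a trimmed mean of the log ratios on no change. All 5 enterocyte, 6 muscle, 5 female germline and 3 fat body markers were called lower in the IP (adjusted p below 0.05). Apolpp, also listed for fat body, was not among the named genes. Of 5 testis markers 3 were called lower, among them can at a mean of only 0.631 CPM in the IP and 1.82 in the input. Over all tested genes the shares called were 37.1% higher and 38.8% lower. Muscle markers summed to 1220 and 880 CPM in the IP against 4325 and 4611 in the input, and female germline markers to 215 and 217 against 1009 and 965. No marker of these lists was at 0 in all libraries. The part of this change of tissues in the members' values was not tested. In such bulk RNA, fewer cells of a type and less RNA per cell cannot be told apart, nor can expression and binding by PABP.

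Of the 73 members, 71 were tested, each with at least 29 counts in every library, so none passed the filter on low counts through 1 group alone. The median count of a tested member was 194 in an IP library and 118 in an input library. The remaining members, mRpL13 and mRpL53, had 0 counts in all 4 libraries. Both are large-subunit genes whose spans lie wholly inside another gene, mRpL13 inside CG10602 and mRpL53 inside AGO1 and CG33155. A lack of their RNA cannot be read from these counts, since how reads in overlapping genes were assigned is not given in the sources used here. Of the tested members 41 overlapped another gene, 7 of them over more than 10% of their span.

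Most members lay close to the typical gene. Of the 71, 33 were called at an adjusted p below 0.05 (46.5%), against 75.9% of the 9989 genes tested. Among the members 7 were higher in the IP, against 37.1% of all tested genes, and 26 were lower, against 38.8% of all tested genes. The median log2 fold change of IP over input was -0.20, beside -0.10 for all tested genes. The members covered a narrow range, with an interquartile range of 0.63 against 2.08 over all tested genes on the log2 scale. Of the 71, 67 (94.4%) lay between the lower and upper quartile of all tested genes, -1.06 and 1.02, a range that holds 50% of genes by construction. Above it stood mRpS5 and mRpS23, and below it mRpL9 and mRpL51.

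**Figure D1:**
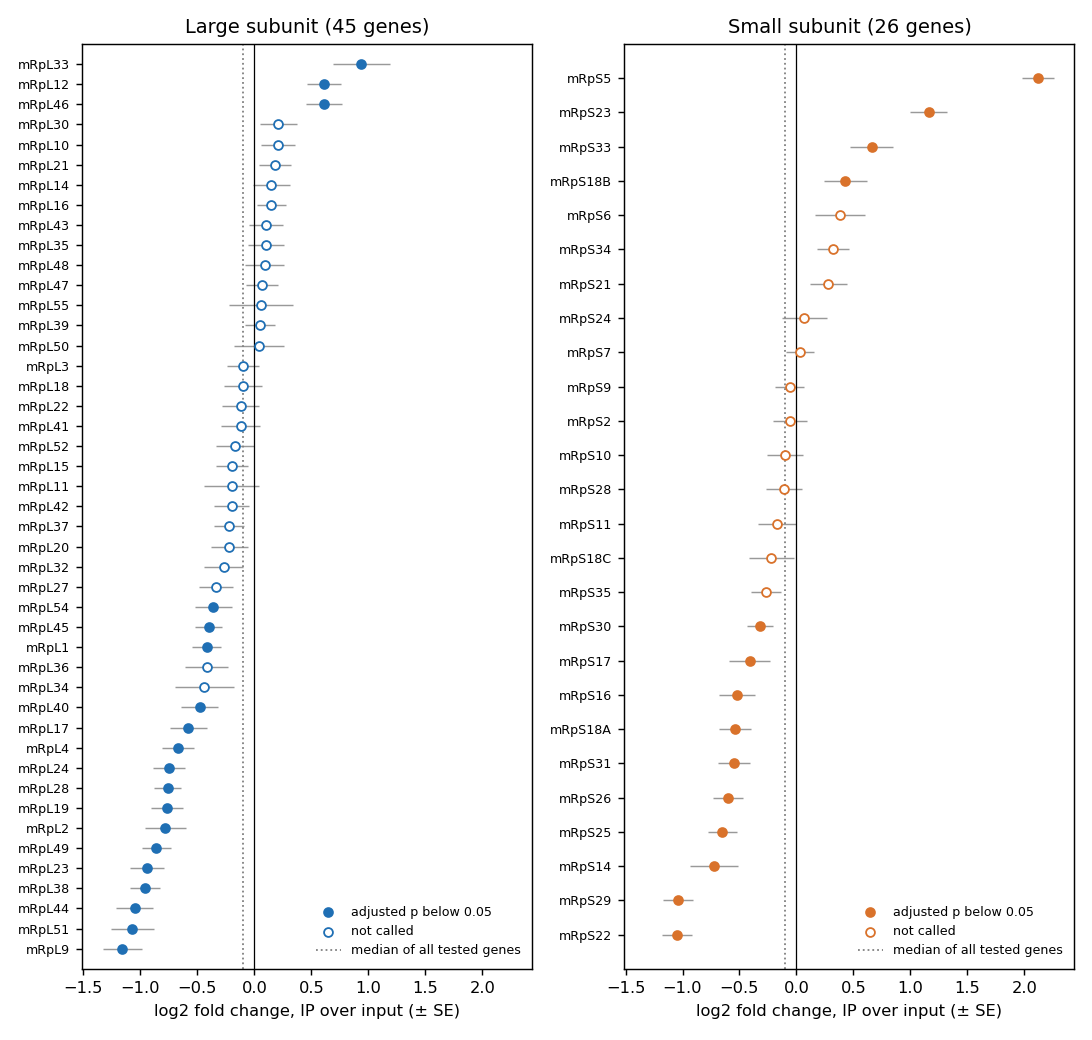
Log2 fold change of PABP IP over input (x axis, ± SE) for the 45 large-subunit and 26 small-subunit members tested, in order of size, 2 libraries per group. Filled points passed an adjusted p of 0.05, and both panels spread around the median of all tested genes (dotted, -0.10), with mRpS5 at 2.12 apart from the rest under the TMM scaling shown.

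The number of members called lower depended on the scaling, which moves every gene by the same amount. The median of the members minus that of all tested genes (-0.10) cannot move with a scaling, but it was -0.16 at a minimum count of 20, -0.08 without a filter, and from -0.17 (without input 1) to -0.05 (without input 2) with 1 library left out. The median of all tested genes was -0.02 with RLE factors, -0.59 with the authors' size factors, -0.71 with upper-quartile factors and -0.95 with library size alone. Under the last 3 of these, 56, 60 and 64 members were called lower, against 53.9%, 57.3% and 63.5% of all tested genes, and 2, 2 and 1 higher, against 27.5%, 25.8% and 22.1%. All 26 members called lower with TMM were also called lower under each of these 3. In the authors' deposited table, which lists 72 members (mRpL13 among them, at 0 in all 4 library columns), 49 were lower and 2 higher at an adjusted p below 0.05, against 38.5% and 21.3% of the genes with an adjusted p there. Other tests kept the TMM zero point or one near it. DESeq2 called 6 members higher and 15 lower (35.1% and 27.7% of all tested genes), a replicate block 6 and 24 (36.6% and 38.2%), a crossed block 8 and 29 (38.3% and 40.4%), and the fit without input 2 called 6 and 18 (34.8% and 32.8%).

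**Figure D2:**
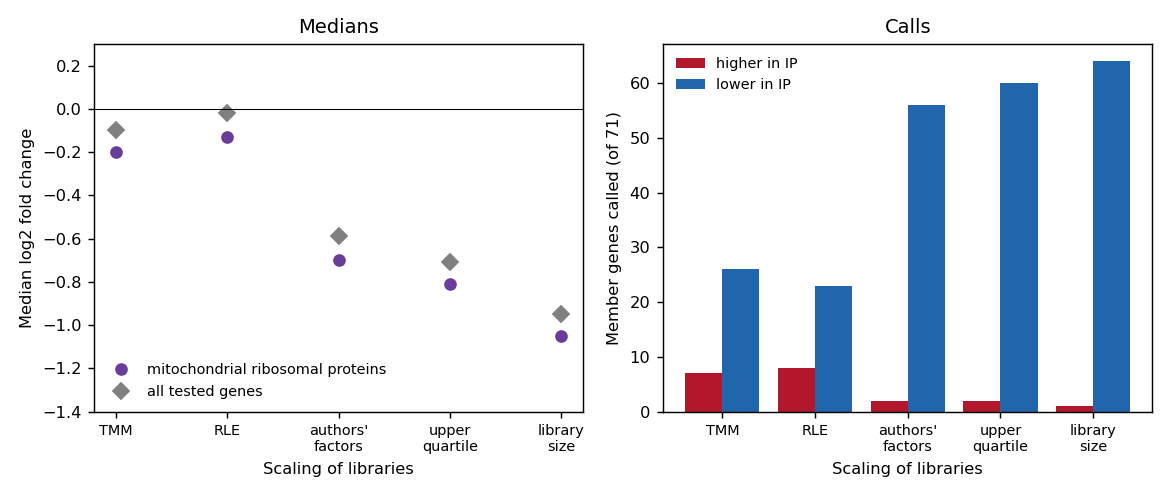
Left, median log2 fold change of IP over input (y axis) of the 71 members (circles) and of all 9989 tested genes (diamonds) under 5 scalings of the libraries (x axis). Right, members called higher or lower (bars, from 0): the medians move together, from -0.20 and -0.10 with TMM to -1.05 and -0.95 with library size alone, while the calls of lower members go from 26 to 64.

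The medians of the 2 subunits lay close together. Of 45 large-subunit members 3 were higher, 16 lower and 26 not called, and their log2 fold changes had a median of -0.20. Of 26 small-subunit members 4 were higher, 10 lower and 12 not called, with a median of -0.14. The difference of -0.06 was smaller than its spread between replicates, 0.183 on the log2 scale. A scaling cannot move this difference. With 1 library left out it ranged from -0.11 (without PABP IP 2) to -0.015 (without input 2). With mRpS18A and mRpS30 counted as large-subunit genes, where the mammalian proteins of these names sit, the difference was -0.11. Members were also classed by number alone, as bacterial type up to mRpL36 and mRpS21 and as mitochondria-specific above. The medians were close too: 41 bacterial-type members had a median of -0.20 and 30 mitochondria-specific members one of -0.21. This class follows the name and was not checked against the ancestry of each protein.

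The summed counts of the subunits differed between IP and input, and this difference rested on 1 gene. Large-subunit counts were 1.32 and 1.19 times the small-subunit counts in PABP IP 1 and 2, and 1.56 times in each input library. Both IP ratios lay below both input ratios. Without mRpS5 the ratios were 1.66 and 1.59 in the IP and 1.67 and 1.65 in the input, and the difference of their logs shrank from -0.32 to -0.027. Over members that overlap no other gene, mRpS5 among them, it was -0.55. These ratios do not depend on the scaling of the libraries.

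**Figure D3:**
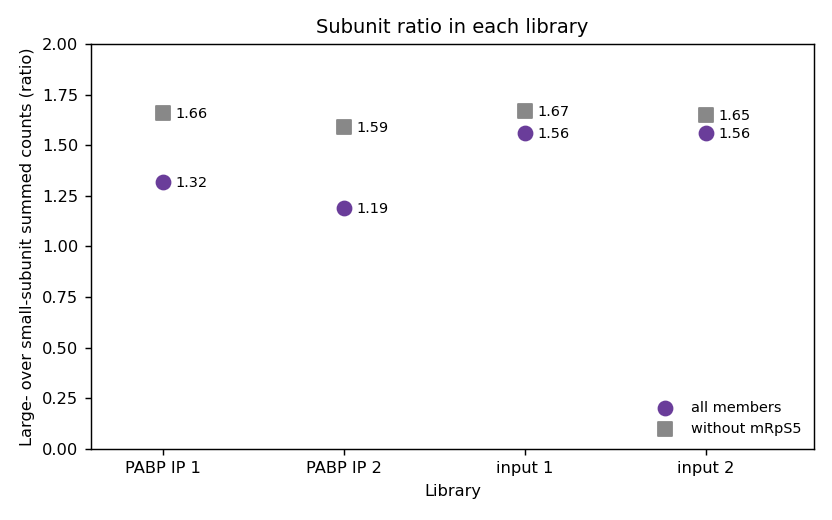
Ratio of summed large-subunit to summed small-subunit counts (y axis, from 0) in each of the 4 libraries (x axis), over all members (circles) and without mRpS5 (squares). With all members the IP libraries sit at 1.32 and 1.19 below both inputs at 1.56, and without mRpS5 the 4 values lie between 1.59 and 1.67.

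The gene mRpS5 encodes the counterpart of bacterial S5, a protein of the small-subunit body at the channel through which mRNA enters. Its counts were 1371 and 2063 in PABP IP 1 and 2 and 191 and 223 in input 1 and 2. In CPM these were 201 and 263 against 58.3 and 49.2, so that both IP libraries lay far above both inputs. It rose 4.35-fold (log2 fold change 2.12 ± 0.14 SE, n = 2 each, adjusted p = 2.80e-10), and it was called higher under every alternative, library size alone included (1.26). In the authors' deposited table it stands at 1.62 (log2), adjusted p = 2.63e-11. Its span of 6299 bases is the second longest among the members, after mRpS9 with 13391, and the median member spans 909. It overlaps no other gene. The nearest gene of any kind lies 1767 bases away, and the nearest that was tested lies 135580 bases away, against at most 514 bases for the other 70 members. Per kilobase of span it had 36.8 CPM in the IP and 8.53 in the input, next to medians over the members of 28.1 and 32.5. The counts are 1 value per gene and do not separate exons from introns, so which part of the gene gave the IP reads was not tested.

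The next largest rise was that of mRpS23, a mitochondria-specific small-subunit protein. It had 44.2 and 54.8 CPM in the IP and 21.1 and 23.2 in the input, with no overlap of the groups. It rose 2.23-fold (log2 1.16 ± 0.16 SE, adjusted p = 3.39e-06). This call was lost with library size alone (0.30). In the authors' deposited table it stands at 0.66 (log2), adjusted p = 0.0027.

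Among large-subunit genes, mRpL33, the counterpart of the small bacterial protein L33, had the highest log2 fold change at 0.94 ± 0.25 (SE, adjusted p = 0.00254). Its levels were 13.0 and 17.5 CPM in the IP and 8.85 and 7.28 in the input, the latter from 29 and 33 counts. This was the lowest input level among the 71 tested members, and the call was lost with upper-quartile factors (0.33), the authors' factors (0.45) and library size alone (0.086). The gene mRpL12 encodes the stalk protein that recruits translation factors, and its mammalian counterpart also binds the mitochondrial RNA polymerase. It had 81.0 and 76.0 CPM in the IP and 40.0 and 60.9 in the input, and the inputs differed from each other by more than the IP libraries did. Its log2 fold change was 0.61 ± 0.15 (SE, adjusted p = 0.00135) and turned to -0.24 with library size alone. The call was also lost with upper-quartile factors (0.0021) and the authors' factors (0.12), and the estimate moved to 0.36 without input 1 and 0.97 without input 2. It was the member with the highest level per kilobase in the IP, 98.8 CPM, against 63.5 in the input.

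Among the smaller rises, mRpL46, a mitochondria-specific protein of the central protuberance, had 31.9 and 31.3 CPM in the IP and 19.8 and 21.4 in the input. Its log2 fold change was 0.61 ± 0.16 (SE, adjusted p = 0.00213), and it changed sign to -0.24 with library size alone and -0.002 with upper-quartile factors, and lost its call with the authors' factors (0.11). The mitochondria-specific small-subunit gene mRpS33 had 22.6 and 27.8 CPM in the IP and 15.6 and 16.3 in the input. Its log2 fold change was 0.66 ± 0.19 (SE, adjusted p = 0.00405), against -0.20 with library size alone, and the call was also lost with upper-quartile factors (0.049) and the authors' factors (0.16). Both genes were higher in each IP library than in either input on the TMM scale. In the authors' deposited table, the 5 rises other than mRpS5 and mRpS23 did not pass, with an adjusted p of 0.523 for mRpL12, 0.174 for mRpL33, 0.62 for mRpL46, 0.654 for mRpS33 and 0.809 for mRpS18B.

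**Figure D4:**
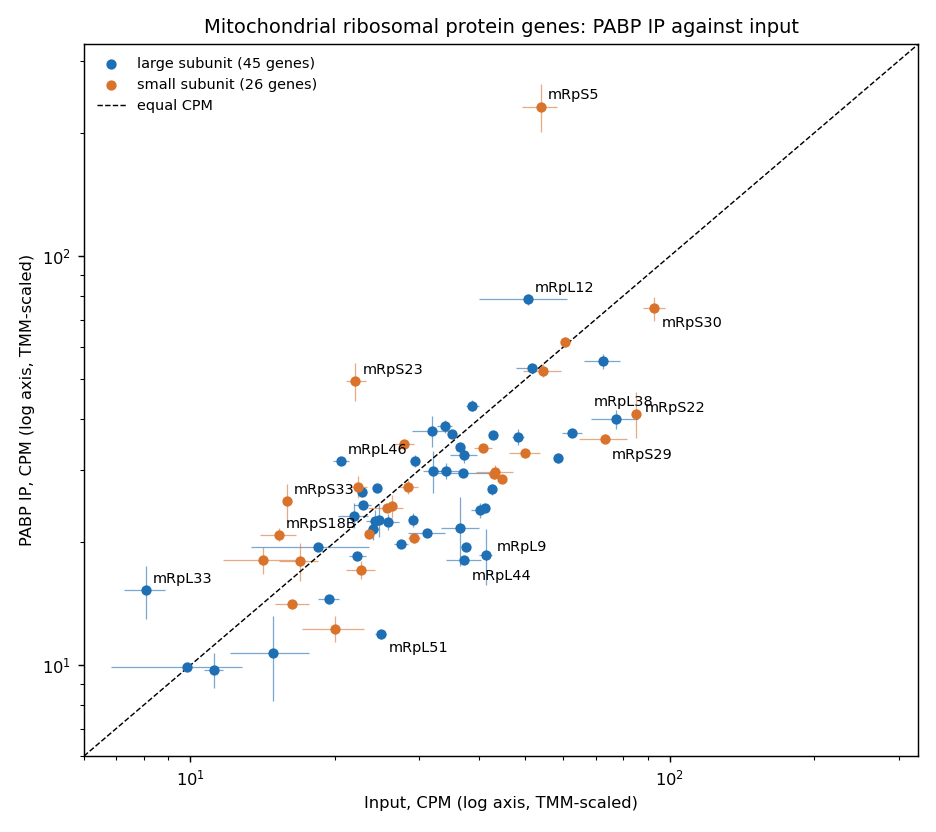
Mean TMM-scaled CPM of each of the 71 tested members in the input (x axis) and the PABP IP (y axis), both on log axes, with lines from the lower to the higher of the 2 libraries of a group. Most points lie near the dashed line of equal CPM, with mRpS5 at 53.8 and 232 farthest above it, a direction that held under every scaling tried.

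The largest falls came from both subunits. The gene mRpL9, the counterpart of bacterial L9, had 21.5 and 15.7 CPM in the IP and 40.0 and 42.6 in the input. It fell by 1.16 ± 0.17 on the log2 scale (SE, adjusted p = 7.91e-06), 2.23-fold. The mitochondria-specific large-subunit gene mRpL51 had 12.2 and 11.6 CPM against 25.6 and 24.3, and fell by 1.07 ± 0.19 on that scale (SE, adjusted p = 6.26e-05). In both genes each IP library lay below each input library.

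The gene mRpL44 encodes a mitochondria-specific protein with a fold like that of ribonuclease III. Its levels were 18.2 and 18 CPM in the IP and 34.2 and 40.4 in the input, which is a log2 change of -1.05 ± 0.16 (SE, adjusted p = 1.19e-05). For mRpL38, a protein of the central protuberance, they were 42.0 and 37.9 against 68.4 and 85.9, a change of -0.96 ± 0.13 (SE, adjusted p = 4.37e-06). For both, the higher IP library stayed well below the lower input library.

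In the small subunit the falls were led by mRpS22 and mRpS29, mitochondria-specific proteins. The first had 46.6 and 35.9 CPM in the IP and 83.6 and 86.3 in the input, a log2 change of -1.05 ± 0.13 (SE, adjusted p = 1.47e-06). The second, the counterpart of the human GTP-binding protein DAP3, had 34.9 and 36.8 against 64.7 and 81.5, a change of -1.04 ± 0.13 (SE, adjusted p = 1.82e-06). Both were among the 4 members with the highest input level, together with mRpL38 and mRpS30. Against a log2 fold change of 1 rather than 0, only mRpS5 of the members was called, and no member was called lower with edgeR's glmTreat (0 did so at an unadjusted p below 0.05), against 21.5% of all tested genes higher and 15.9% lower. The estimates of 5 called members were below -1.

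The gene mRpS30 had the highest input level of all members, 87.9 and 97.8 CPM, and 79.4 and 69.6 CPM in the IP. Its fall was small, at -0.32 ± 0.11 (SE, adjusted p = 0.0162), and was not called with RLE factors (-0.25), without a count filter (-0.26), in DESeq2 (-0.25), or without PABP IP 2 (-0.24) or input 2 (-0.24). The head protein gene mRpS7, the counterpart of bacterial S7, had nearly the same level in both groups on the TMM scale. It had 60 and 63.5 CPM in the IP and 59.2 and 61.8 in the input. Its log2 fold change was 0.03 ± 0.12 (SE, adjusted p = 0.832), and the groups overlapped. The sign was negative with upper-quartile factors, the authors' factors and library size alone (-0.58, -0.47 and -0.83). In the authors' deposited table mRpS7 was lower, at -0.47 (log2), adjusted p = 0.000313.

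Apart from the members described one by one, 17 further members were called lower, from -0.94 to -0.36 on the log2 scale. In the large subunit these were mRpL1, mRpL2, mRpL4, mRpL17, mRpL19, mRpL23, mRpL24, mRpL28, mRpL40, mRpL49 and mRpL54. In the small subunit they were mRpS14, mRpS16, mRpS17, mRpS25, mRpS26 and mRpS31. The 38 members that were not called ranged from -0.44 to 0.38. The median SE of a tested member was 0.16. In TMM-scaled CPM, 38 members (53.5%) had both IP values below both input values, against 46.3% of all tested genes. Another 16 (22.5%) had both above, against 42.3%. These counts also depend on the scaling.

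Proteins grouped by their place in the ribosome, from groups drawn up after the values were known, are described by their counts, without a test. The groups do not hold every member, and members left out may lie at the same places. Of all tested genes, 37.1% were called higher and 38.8% lower. Of 5 members grouped at the tunnel through which the new chain leaves, 4 fell (mRpL4, mRpL23, mRpL24 and mRpL45) and mRpL22 was not called. The median log2 change of these 5 was -0.67. The protein of mRpL45 lies at the tunnel exit, where its mammalian counterpart ties the ribosome to the inner membrane. Its levels were 57.7 and 53.0 CPM in the IP and 66.2 and 78.6 in the input, a change of -0.40 ± 0.12 (SE, adjusted p = 0.00737) that was not called in DESeq2 (-0.32) or without input 2 (-0.26).

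Of the 3 stalk members only mRpL12 was called. The stalk base gene mRpL10 had 40.6 and 34.1 CPM in the IP and 29.0 and 34.9 in the input, with overlapping groups and a log2 change of 0.21 ± 0.15 (SE, adjusted p = 0.215). It turned to -0.40, -0.29 and -0.64 with upper-quartile factors, the authors' factors and library size alone. Around the peptidyl transferase centre, where peptide bonds form, 1 of 4 members fell (mRpL2) and 3 were not called. Of these mRpL16 had 44.5 and 41.8 CPM in the IP and 37.5 and 40.0 in the input, a log2 change of 0.15 ± 0.13 (SE, adjusted p = 0.304). Both IP values lay above both inputs, and the sign turned with upper-quartile factors (-0.46), the authors' factors (-0.35) and library size alone (-0.70).

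Of 4 central protuberance members mRpL38 and mRpL40 fell, mRpL46 rose and mRpL48 was not called, with mRpL46 lower in sign with upper-quartile factors (-0.002) and library size alone. Of 5 members of the small-subunit head only mRpS14 was called, lower, and the others had log2 fold changes within 0.10 of 0. Of 7 members of the body and platform, mRpS5 rose, mRpS16 and mRpS17 fell and 4 were not called. Other genes overlap 33.3% of the span of mRpS14.

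The fly has 3 genes related to bacterial S18, and their values are given side by side. The gene mRpS18A had 28.6 and 30.3 CPM in the IP and 41.8 and 43.9 in the input, a log2 change of -0.54 ± 0.14 (SE, adjusted p = 0.00164), not called in DESeq2 (-0.47). For mRpS18B the levels were 20.1 and 21.6 against 14.0 and 16.6, a change of 0.43 ± 0.19 (SE, adjusted p = 0.0463). For mRpS18C they were 13.9 and 14.3 against 15.0 and 17.7, a change of -0.22 ± 0.20 (SE, adjusted p = 0.324). With upper-quartile factors (-0.83), the authors' factors (-0.72) and library size alone (-1.07), mRpS18C was called lower. The authors' deposited table has it at -0.71 (log2), adjusted p = 0.0435. The call of mRpS18B was the weakest among the rises: it was lost with a replicate block (0.44), in DESeq2 (0.51), with a minimum count of 20 (0.39), and without PABP IP 2 (0.37), input 1 (0.33) or input 2 (0.57). It changed sign to -0.18 with upper-quartile factors, -0.06 with the authors' factors and -0.42 with library size alone. A difference between these genes was not tested.

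Per kilobase of span, levels ran from 27.5 to 40.6 CPM in the input and from 22.8 to 34.4 in the IP, as lower and upper quartiles. The lowest was mRpS9 in each group (4.06 and 3.92 CPM per kilobase), the member with the longest span, of which 79.8% overlaps ArgRS-m and wtrw. In the input the median per kilobase was 32.8 CPM for large-subunit and 30.4 for small-subunit members, and in the IP 27.4 and 29.3. Across the 71 members the log2 fold change fell with the input level (Pearson r = -0.37, Spearman rho = -0.45; -0.51 and -0.49 without mRpS5). The input level enters both measures, so this is a description only. The fold change showed little relation to that of the nearest tested gene (r = -0.02, rho = -0.03) or to the percent of the span overlapped (r = 0.03). These points share their libraries.

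The members stood nearer to no change than the nuclear genes of the respiratory chain, whose partner subunits mitochondrial ribosomes make. On the TMM scale, 63 of 72 respiratory chain genes tested were lower and 1 higher, their log2 fold changes had a median of -1.07, and 47.2% lay within the quartiles of all tested genes. Cytosolic ribosomal protein genes were closer to the members, with 52 of 86 lower, 3 higher and a median of -0.38. Of 34 mitochondrially encoded genes 33 were lower, with a median of -2.74. Most of this list is tRNA genes, and it also holds rRNA genes and a row named mt:ori. Its protein-coding genes ranged from -3.39 (mt:ND3) to -0.85 (mt:ATPase8). The medians of the lists were not tested against each other. As shares of all counts, mitochondrially encoded genes made up 0.645% and 0.722% in PABP IP 1 and 2 and 5.90% and 4.59% in input 1 and 2. The members made up 0.172% and 0.166% against 0.318% and 0.348%, and their summed TMM-scaled CPM was 2259 and 2277 in the IP and 2393 and 2574 in the input.

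**Figure D5:**
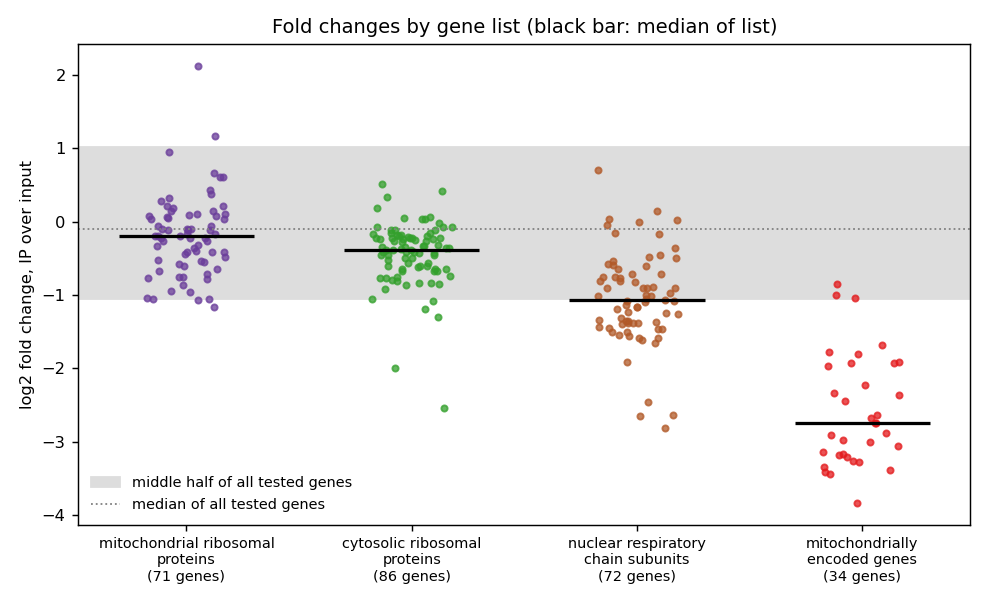
Log2 fold change of IP over input (y axis, TMM scaling) for each tested gene of 4 lists (x axis), with the list median as a black bar and the quartile range of all tested genes in grey. The members and the cytosolic ribosomal protein genes lie mostly inside the grey band (medians -0.20 and -0.38). The respiratory chain genes lie at its lower edge (-1.07) and the mitochondrially encoded genes, tRNA and rRNA genes included, mostly below it (-2.74).

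Other genes of mitochondrial translation moved in both directions. Small-subunit proteins with older gene names are not members by the rule. Of these tko, which encodes the S12 protein of the decoding centre, had 43.8 and 44.9 CPM in the IP and 32 and 45.5 in the input. The groups overlapped (log2 0.17 ± 0.15 SE, adjusted p = 0.3). The sign of tko was negative with upper-quartile factors (-0.44), the authors' factors (-0.32) and library size alone (-0.68). The gene bonsai, which encodes S15, fell by 0.39 ± 0.12 (SE, adjusted p = 0.00633), not called in DESeq2 (-0.32). Of 9 translation factor genes tested 4 were higher and 4 lower, with a median of 0.28. The initiation factor gene mIF3 had 68.1 and 78.3 CPM in the IP and 13.7 and 12.6 in the input, a rise of 2.48 ± 0.15 on the log2 scale (SE, adjusted p = 1.49e-10). The elongation factor gene mEFTu2 fell by 0.92 ± 0.15 (SE, adjusted p = 2.95e-05). GatB, a subunit of the enzyme that completes mitochondrial glutaminyl-tRNA, rose by 0.85 ± 0.15 (SE, adjusted p = 7.37e-05). Its value was -0.0079 with library size alone and 0.24, not called, with upper-quartile factors. In the authors' deposited table GatB did not pass, at 0.35 (log2), adjusted p = 0.218. The factor genes mEFTu1, mRRF1, waw and GatC had 0 counts in all libraries, as had 4839 of the 17806 named genes. As for mRpL13 and mRpL53, a lack of their RNA cannot be read from this. How reads were assigned to genes is not given in the sources used here.

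Of 15 genes for enzymes that charge mitochondrial tRNAs (Slimp, a relative of the seryl-tRNA enzyme, is counted with them), 3 were higher and 5 lower, with a median of 0.03. The lowest p-values were those of PheRS-m, lower at -1.48 ± 0.14 (SE, adjusted p = 3.97e-08), AspRS-m, higher at 1.24 ± 0.11 (SE, adjusted p = 1.32e-08), and AlaRS-m, lower at -0.94 ± 0.14 (SE, adjusted p = 8.59e-06). Of 11 genes of mitochondrial genome maintenance and transcription 1 was higher and 4 lower, with a median of -0.34. Among them mTerf5, of the family of mitochondrial transcription termination factors, fell by 0.99 ± 0.13 (SE, adjusted p = 2.31e-06), the topoisomerase gene Top3alpha by 0.96 ± 0.13 (SE, adjusted p = 4.11e-06) and TFAM, which packages mitochondrial DNA, by 0.39 ± 0.12 (SE, adjusted p = 0.00834). The fall of TFAM was not called in DESeq2 (-0.31) or without input 2 (-0.24).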

How the data were processed

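The submitters' processing notes list DESeq2, featureCounts (Subread 2.0.0), SAMtools 1.10, cutadapt 2.9 and STAR 2.7.3a. The sources used here do not give the genome build, the strand setting or the order of steps. Per the labels' protocols, libraries were made with the Ovation SoLo kit. The deposited counts are whole reads per gene, not normalized; the row without a name held at most 0.000418% of a library. Per the file headers, a length (another number beside the counts) is given per gene, and it equalled the whole span in RefSeq (Release 6 plus ISO1 MT) for all 73 members, which matched by symbol. That table was used for names, overlaps and distances only.

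The authors' deposited table has columns, per the file headers, of log2 fold change, Wald score, p-value and normalized signal, the last equal to the counts over size factors of 3.22, 3.68, 1.09 and 1.51. Its base mean exceeds the mean of its 4 library columns for genes such as mRpL13, so its fit may hold libraries not analysed here.

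Counts were tested with edgeR 4.0.16 (R 4.3.3): filterByExpr at a minimum count of 10, TMM, glmQLFit, glmQLFTest, Benjamini-Hochberg over 9989 genes at 0.05. The SE is the size of the log2 fold change over the square root of F. Alternatives were RLE, upper-quartile and library-size scaling, 2 filters, DESeq2 1.42.0, limma-voom (3.58.1), a replicate block, each library left out, an adjusted p of 0.01 and glmTreat at a log2 change of 1. The authors' factors, a crossed block and leaving out mRpS5 were added after seeing the data. Chi-square over its degrees of freedom was 7.93 between the IP and 2.85 between the input replicates, above sampling noise. Across genes, the deviations of same-numbered libraries from their group means had r = -0.113. With 2 libraries per group, this cannot show whether same-numbered samples shared a lysate. The labels state no pairing, so the main fit used none. The fit was tested on simulated data. Summaries used pandas 2.3.3 and numpy 2.4.6 in Python 3.11.15.

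Members and lists were chosen with earlier results of these data known. Members named with values were the 6 largest rises and falls called with at least 10 CPM and no overlap of groups, the 4 highest in each group, all rises, the S18 genes, members of known role pAbp and, per related list, up to 3 genes of lowest p. No table given here holds sequences, so none is printed.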

Additional observations from a re-analysis of the deposited data

How the results depend on the processing

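The members' median log2 fold change was -1.05 with library size alone, -0.81 when scaled by upper quartiles and -0.70 by the authors' factors. The large-subunit median took these same 3 values. The small-subunit median was -0.99, -0.75 and -0.64 in that order, and -0.066 with RLE factors, -0.074 without a filter and -0.067 in DESeq2. Members higher and lower were 2 and 60 by upper quartiles, 1 and 64 by library size, 2 and 56 by the authors' factors, and 1 and 0 against a log2 fold change of 1, while DESeq2 called 15 lower. All tested genes higher and lower numbered 2209 and 6347 with library size alone and 2145 and 1584 against a log2 fold change of 1. Of the 30 members that overlap no other gene, 10 were lower and 5 higher with TMM, against 38.8% and 37.1% of all tested genes. The log2 difference of the subunit ratio was -0.071 without the top member of each subunit (mRpL12 and mRpS5), -0.027 without mRpS5 and -0.55 over members that overlap no other gene. These scalings move the zero point of all genes, and these signs changed: with upper-quartile factors mRpL10 -0.40, mRpL16 -0.46, mRpL46 -0.002, mRpS18B -0.18, mRpS7 -0.58 and tko -0.44; with library size alone GatB -0.0079, mRpL10 -0.64, mRpL12 -0.24, mRpL16 -0.70, mRpL46 -0.24, mRpS18B -0.42, mRpS33 -0.20, mRpS7 -0.83 and tko -0.68; with the authors' factors mRpL10 -0.29, mRpL16 -0.35, mRpS18B -0.064, mRpS7 -0.47 and tko -0.32. With a minimum count of 20, mRpS7 was at -0.013. With 1 library left out, members higher ranged from 6 to 8, members lower from 18 (without input 2) to 25, the members' median from -0.26 to -0.13, the large-subunit median from -0.28 to -0.14, the small-subunit median from -0.19 to -0.13 and their difference from -0.11 to -0.015. All genes higher ranged from 3474 to 3725 and lower from 3279 to 3759. Without 1 library mRpS7 lay between -0.024 (without PABP IP 2; -0.00051 without input 1) and 0.091, and left-out libraries turned tko to -0.035 (input 1), while tko was called without input 2 (0.47). With the replicate block 6 members were higher and 24 lower, with the crossed block 8 and 29; of the named genes the block ended only the call of mRpS18B (0.44). Input counts, down to 29 per member, limit what can be detected.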
